A study of Homo sapiens with 9 samples.

Results

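The 9 genes described here encode the RUNX transcription factors RUNX1, RUNX2 and RUNX3, their common partner CBFB, the Groucho-type co-repressors TLE1, TLE2, TLE3 and TLE4, and the deacetylase HDAC4. They were chosen by name and found by Ensembl identifier, and all 9 were present. The table read was that of the H460-ERT2-RUNX3-K94/171R line, the one that lists Ensembl identifiers, for 19869 genes. NCI-H460 is an established large cell lung cancer line in which K-RAS is activated and the labels describe RUNX3 as inactivated. The series asked which genes respond when RUNX3 is switched on at the restriction point, the stage of G1 at which a cell commits to division or arrest, and its 9 libraries comprise 3 lines (H460-Tam, H460-RUNX3WT-Tam and H460-RUNX3MT-Tam) at 0, 8 and 16 h, 1 library per line and time. Levels in the other 6 libraries, whose table lists loci without gene names, were not analysed here.

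The 3 libraries used here were all made from cells of passage 11 with the genotype label ERT2-RUNX3 MT insertion, a stable transfection of RUNX3 carrying the changes K94R and K171R, joined to the ERT2 ligand-binding domain of the estrogen receptor. Each culture had been serum-starved for 24 h. The library at 0 h was the control, and those at 8 and 16 h came from cells given 10% serum together with 1 µM 4-OHT, the tamoxifen metabolite that lets an ERT2 fusion enter the nucleus. Serum and inducer were added together in these libraries, so their effects cannot be told apart. The mutant RUNX3 does not interact with BRD2, and the sources used here give neither the promoter that drives the insertion nor whether the line is 1 clone. With 1 library per time there is no replicate check. No test was made, and every difference below is between 2 libraries.

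RUNX proteins bind DNA through their runt domain, and CBFβ, which does not touch DNA itself, pairs with that domain and stabilises the bound complex. The same RUNX protein can activate or repress a gene: acetyltransferases such as p300 and bromodomain proteins such as BRD2 join it at active genes, whereas TLE proteins, recruited through a short motif at the RUNX carboxyl terminus, and histone deacetylases join it at repressed genes. HDAC4, a class IIa deacetylase, shuttles between cytoplasm and nucleus, and RUNX3 is among the proteins from which it can remove acetyl groups. RUNX3 is best known in lung as a tumour suppressor, RUNX1 in blood formation and RUNX2 in bone.

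The 2 codons that distinguish the inserted RUNX3 are shown because the mutant line is defined by them. They were read from the reference transcript RUNX3-201, which encodes 415 residues, in the GENCODE release 44 annotation lifted to GRCh37 (hg19), and the lysine codon is in capitals. Lys-94 lies in exon 1 of that transcript at chr1:25256078-25256080 and Lys-171 in exon 3 at chr1:25245762-25245764, both on the minus strand. The stretch around Lys-94 crosses an exon junction and is therefore transcript sequence. The codons used in the insertion itself were not read, and per-gene values cannot separate reads of the insertion from reads of the chromosomal gene.
RUNX3 Lys-94: cccgtcgccttcAAGgtggtggcattg
RUNX3 Lys-171: caccgagccatcAAGgtgaccgtggac

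The longer RUNX3 protein of the other 2 transcripts read here, of 429 residues, begins with different residues, and in it neither position 94 nor position 171 is a lysine, so the residue numbers of the mutant are those of the 415-residue form.

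RUNX genes are known to carry RUNX sites near some of their starts, and promoters of the 3 family members are shown for this reason. The windows come from RefSeq (GRCh38.p14) and run from 250 bases before to 50 bases after an annotated start. Each was searched on both strands for TGTGGT and TGCGGT, the core letters of the RUNX site, and matches are in capitals (a match on the other strand reads ACCACA or ACCGCA). The first RUNX3 line is the distal start, chr1:24964961-24965260 on the minus strand, and the second the proximal start, chr1:24930227-24930526 on the same strand. The RUNX2 line is its distal start, chr6:45328080-45328379 on the plus strand, and the RUNX1 line is chr21:34888650-34888949 on the minus strand.
RUNX3 distal: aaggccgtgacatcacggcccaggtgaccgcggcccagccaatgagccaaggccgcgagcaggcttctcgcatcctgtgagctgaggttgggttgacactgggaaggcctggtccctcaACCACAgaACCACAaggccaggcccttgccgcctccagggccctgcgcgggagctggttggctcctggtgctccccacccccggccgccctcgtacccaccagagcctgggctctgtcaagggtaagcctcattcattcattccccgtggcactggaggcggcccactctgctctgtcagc
RUNX3 proximal: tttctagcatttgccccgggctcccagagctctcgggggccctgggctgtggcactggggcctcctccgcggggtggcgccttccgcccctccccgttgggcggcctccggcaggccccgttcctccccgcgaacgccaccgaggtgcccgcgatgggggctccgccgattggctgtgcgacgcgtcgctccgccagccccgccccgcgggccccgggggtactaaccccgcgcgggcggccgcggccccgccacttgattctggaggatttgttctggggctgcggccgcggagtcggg
RUNX2 distal: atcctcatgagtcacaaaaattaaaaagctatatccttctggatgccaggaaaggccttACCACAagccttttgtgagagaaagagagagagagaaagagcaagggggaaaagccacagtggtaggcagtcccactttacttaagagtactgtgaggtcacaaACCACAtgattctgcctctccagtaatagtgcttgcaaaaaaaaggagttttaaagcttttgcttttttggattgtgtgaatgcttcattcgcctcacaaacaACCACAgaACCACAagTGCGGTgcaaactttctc
RUNX1: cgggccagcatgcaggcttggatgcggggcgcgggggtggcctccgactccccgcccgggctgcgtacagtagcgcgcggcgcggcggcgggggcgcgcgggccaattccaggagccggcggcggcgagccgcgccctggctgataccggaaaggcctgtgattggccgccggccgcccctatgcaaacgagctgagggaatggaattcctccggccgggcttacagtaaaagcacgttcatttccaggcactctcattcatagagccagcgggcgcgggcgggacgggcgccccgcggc

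The distal RUNX3 window held 2 matches to TGTGGT, whose first bases lie at -131 and -123 from the start, whereas the proximal window held none. The only RUNX1 window read also held none. Other RUNX1 starts were not read, so its windows cannot be compared with the distal windows of RUNX3 and RUNX2. The distal RUNX2 window held 4 matches to TGTGGT and 1 to TGCGGT, and the other RUNX2 window, chr6:45422025-45422324, not printed, held none. Of the 35116 windows of this length, 13.1% held TGTGGT, 7.29% held TGCGGT and 19.6% held either. The 18 windows found for 8 of the 9 genes included 6 with a match, which belonged to 5 genes. Besides RUNX2 and RUNX3 these were TLE3 with 2 TGTGGT, HDAC4 with 1 TGTGGT, and TLE4 with 1 TGCGGT in one window and 2 in another. TLE1 and TLE2 windows had no match. The shares of all windows are per window and no share per gene was computed, so the 5 genes cannot be set beside them. Whether 6 of 18 windows is a particular count was not tested. These are letter matches in a window and were not tested for binding.

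The values below are FPKM, fragments scaled to the length of the transcript and the depth of the library, which is a level per length. Changes are log2 differences after adding 0.05 to each FPKM. The files give no read totals. Depth was therefore estimated from the FPKM of single fragments in lowly expressed genes with 1 annotated transcript. It came to about 10900000, 11200000 and 10800000 fragments at 0, 8 and 16 h. The estimate is a median within a fixed window of 0.06 to 0.12 FPKM times kilobases, set after the values were seen. Depths that fall outside the window could not have come out, so that estimate cannot show that the 3 libraries were of like depth. The fragment numbers and 95% intervals given for a gene follow from that estimate and the length of its main transcript, hold no pseudocount, and cover counting error only.

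The RUNX family was represented almost wholly by RUNX1 and RUNX3 in these cells. RUNX3 (ENSG00000020633, hg19 chr1:25226002-25291612, minus strand), the gene that was inserted, read 2.12, 0.712 and 2.11 FPKM at 0, 8 and 16 h. The level was thus low at 8 h and nearly equal at the other times. These levels correspond to about 98, 34 and 97 fragments if the reads cover the full main transcript, which reads from the insertion may not do. The change at 8 h was -1.51 (interval -2.18 to -0.99), and the change from 8 to 16 h was 1.50 (interval 0.99 to 2.17). The difference of 16 h from 0 h was -0.01, with an interval from -0.42 to 0.42, and its sign turned when the libraries were rescaled. The highest of the 3 levels was 2.98 times the lowest, the widest spread among the 8 members listed above 0 at every time. Among the 4761 genes whose mean FPKM was between 1 and 10, 45 (0.945%) were lower by at least as much at 8 h, and 64 (1.34%) were higher by at least as much at 16 h than at 8 h.

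Ordered by FPKM, RUNX3 stood at place 10163, 11287 and 10225 among all genes at the 3 times, and 11119, 10961 and 11140 genes reached an FPKM of 1 in those libraries. RUNX3 was therefore not among the highly expressed genes of the line, and no library without the insertion is in the same table. ESR1 (hg19 chr6:151977826-152450754, plus strand), the estrogen receptor gene from which the ERT2 domain derives, read 3.22, 2.04 and 3.61 FPKM. Like RUNX3 it was lowest at 8 h, by a smaller amount. Its change was -0.64 at 8 h and 0.81 from 8 to 16 h, the latter with an interval of 0.51 to 1.12, and both are within the sizes that 90% of genes of like level stayed below (0.80 and 0.84). Whether the reads of either gene came from the insertion or the chromosome cannot be told apart. The levels of both genes and the places of RUNX3 assume annotated transcript lengths, and the intervals assume the full length of the main transcript.

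RUNX1 (ENSG00000159216, hg19 chr21:36160098-37376965, minus strand), the family member best known in haematopoiesis, read 4.76, 3.61 and 4.54 FPKM at 0, 8 and 16 h. It too was lowest at 8 h, but its change there of -0.40 (interval -0.65 to -0.16) was one that 20.2% of genes of like level equalled or passed in the same direction. At 16 h it differed from 0 h by -0.07, a sign that turned when the libraries were rescaled to the same FPKM sum. The ratio of RUNX1 to RUNX3 FPKM was 2.25 at 0 h, 5.07 at 8 h and 2.15 at 16 h. It rests on annotated transcript lengths, which reads from an inserted RUNX3 of another length would not match. The same limit holds for the ratio of CBFB to the RUNX genes given below.

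RUNX2 (ENSG00000124813, hg19 chr6:45295894-45632086, plus strand), the osteoblast factor, was listed at 0, 0.0632 and 0.0360 FPKM, which amounts to about 0, 4 and 2 fragments. RUNX2 mRNA was near the limit of detection in all 3 libraries, and no fold is given against a value of 0.

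CBFB (ENSG00000067955, hg19 chr16:67062887-67134961, plus strand), the non-DNA-binding subunit, was the most highly expressed of the 9 genes in every library, at 44.6, 50.9 and 44.3 FPKM. Its level was slightly higher at 8 h, by 0.19 (interval 0.09 to 0.29), and at 16 h differed from 0 h by -0.01, a sign that turned on rescaling. The 8 h difference exceeded counting error, yet 32.7% of genes with a mean FPKM of 10 to 100 were higher by as much. The summed FPKM of the 3 RUNX genes was 6.88, 4.38 and 6.69, so CBFB mRNA stood at 6.47 times that sum at 0 h, 11.6 times at 8 h and 6.62 times at 16 h. The higher ratio at 8 h came with a lower RUNX3 and RUNX1 and a slightly higher CBFB in the same library.

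**Figure D1:**
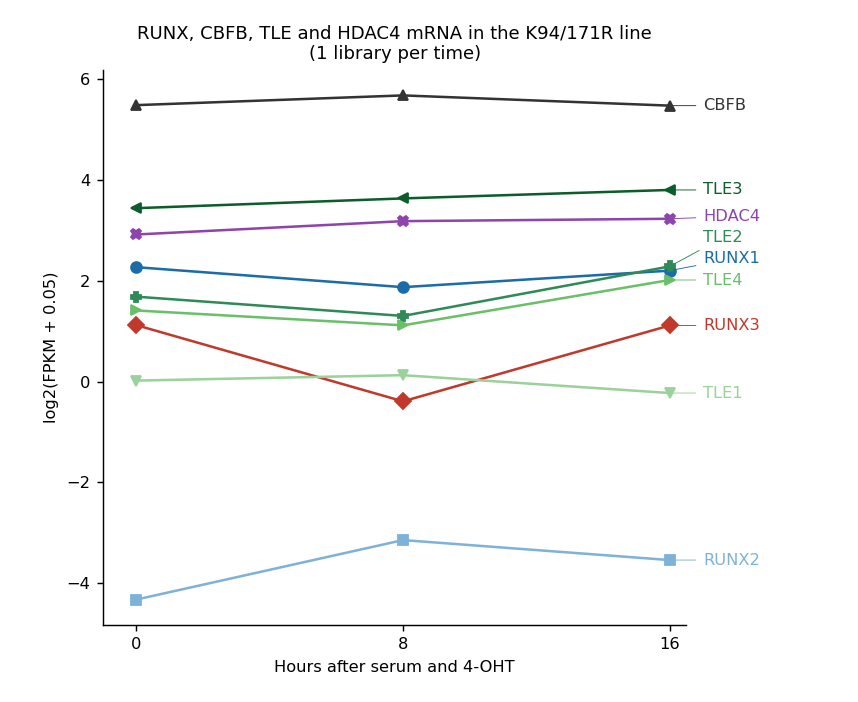
Level of each of the 9 genes, as log2(FPKM + 0.05), in the K94/171R libraries at 0, 8 and 16 h after serum and 4-OHT, 1 library (point) per time. RUNX3 (diamonds) goes from 2.12 to 0.712 and back to 2.11 FPKM, CBFB stays between 44.3 and 50.9, and RUNX2, listed at 0 at 0 h, lies at the bottom.

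Among the TLE co-repressors, which bind no DNA themselves and are brought to genes by RUNX and other factors, TLE3 was the main form and TLE2 and TLE4 were higher at 16 h than at 8 h. TLE3 (ENSG00000140332, hg19 chr15:70340129-70390515, minus strand) read 10.8, 12.3 and 13.9 FPKM. It was higher at each later time, with a change of 0.36 at 16 h against 0 h (interval 0.22 to 0.51), and 7.41% of genes of like level were higher by as much. TLE3 made up 61.6%, 68.9% and 59.1% of the summed FPKM of the 4 genes, which was 17.5, 17.9 and 23.5.

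TLE2 (ENSG00000065717, hg19 chr19:2997637-3047633, minus strand) read 3.16, 2.41 and 4.81 FPKM. It was higher at 16 h than at either earlier time. The change from 8 to 16 h was 0.98 (interval 0.59 to 1.41), and 4.54% of genes of like level were higher by as much. Against 0 h the change was -0.38 at 8 h, with an interval of -0.84 to 0.06 that includes 0. At 16 h against 0 h it was 0.60 (interval 0.22 to 0.99).

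TLE4 (ENSG00000106829, hg19 chr9:82186688-82341797, plus strand) had the same order, with 2.61, 2.11 and 3.99 FPKM. Its change from 8 to 16 h was 0.90 (interval 0.58 to 1.25), which 5.97% of genes of like level reached. Its change at 8 h against 0 h was -0.29, with an interval of -0.67 to 0.06 that includes 0. At 16 h against 0 h it was 0.60 (interval 0.29 to 0.93). The 16 h levels of TLE2 and TLE4 rest on about 146 and 210 fragments.

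TLE1 (ENSG00000196781, hg19 chr9:84198598-84304462, minus strand) was the lowest of the 4, at 0.963, 1.04 and 0.804 FPKM. Its 3 levels, of about 43, 48 and 36 fragments, were not distinguishable at this depth, since the interval of each difference includes 0. The largest difference, from 8 to 16 h, was -0.35 with an interval of -1.03 to 0.29.

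HDAC4 (ENSG00000068024, hg19 chr2:239969864-240323348, minus strand) read 7.49, 9.01 and 9.31 FPKM at 0, 8 and 16 h. Both serum-stimulated libraries were above the starved one, by 0.26 (interval 0.12 to 0.41) and 0.31 (interval 0.17 to 0.46). The levels at 8 and 16 h differed by 0.05, with an interval from -0.09 to 0.19. As many as 22.8% and 19.9% of genes of like level were higher by as much at 8 and 16 h.

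By level, CBFB came first and TLE3 and HDAC4 next in all 3 libraries. The gap from CBFB to TLE3 was larger than the difference that 90% of genes of like level stayed below between libraries, as was the gap above RUNX2, which came last throughout. TLE3 and HDAC4 were not separated by that measure. RUNX1, TLE2 and TLE4 lay close together below them, and RUNX1 and TLE2 exchanged places at 16 h. RUNX3 was above TLE1 at 0 and 16 h and below it at 8 h.

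**Figure D2:**
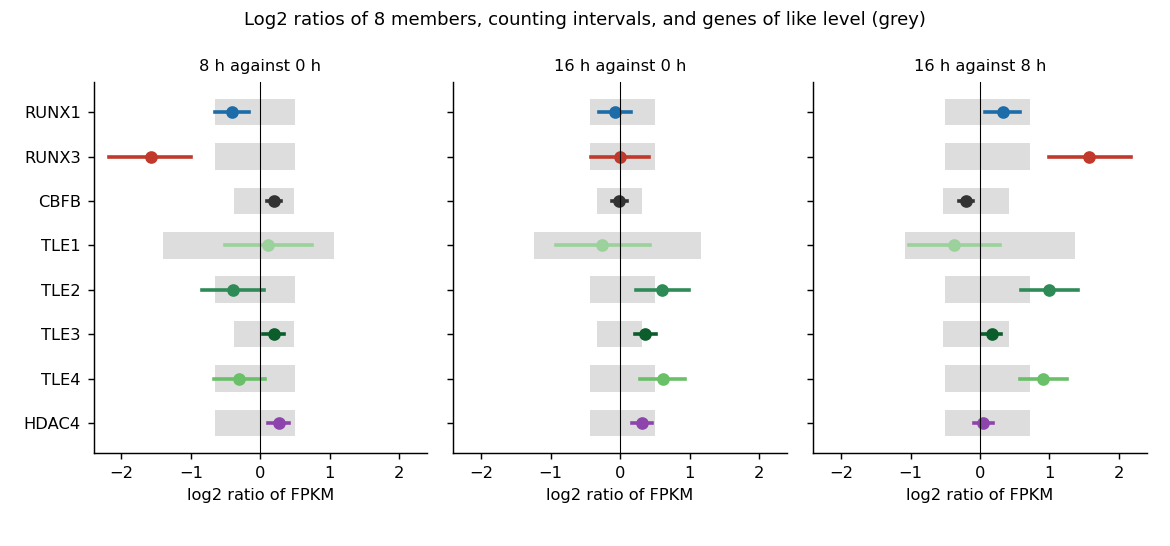
Log2 ratio of FPKM, without pseudocount, for 8 genes in the 3 comparisons of libraries (points), with 95% counting intervals (lines); grey bars span the central 80% of genes in the same range of mean FPKM, and RUNX2 is left out because it is listed at 0 at 0 h. RUNX3 lies clear of its grey bar at 8 h against 0 h and at 16 h against 8 h, TLE2 and TLE4 lie past theirs at 16 h against 8 h, and TLE2, TLE3 and TLE4 lie just past theirs at 16 h against 0 h.

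None of the 9 genes reached a log2 change of 2, the size used for calls in this study, in any comparison. Of all 19869 genes, 1.49% reached it in either direction at 8 h against 0 h, 1.32% at 16 h against 0 h and 1.5% at 16 h against 8 h, shares at which 0 of 9 is no particular count. At a size of 1, RUNX3 was the 1 member lower at 8 h (background 4.53% lower) and the 1 member higher at 16 h than at 8 h (background 4.53% higher), where TLE2, at 0.98, came to 1.04 when the libraries were rescaled in either way. RUNX2 was counted as 1 member higher at 8 h (background 2.77%), a call made from about 4 fragments against none. At 16 h against 0 h no member was higher or lower by 1, where 3.11% of all genes were higher and 3.36% lower, and none was lower at 16 h than at 8 h (background 2.95%). All 19869 genes include 4928 listed at 0 in all 3 libraries, whose change is 0 and which no threshold can call. Among genes that reached an FPKM of 1 in either library, 2.49% were lower by 1 at 8 h and 2.66% higher by 1 from 8 to 16 h. The median change of the 9 was 0.11 at 8 h, 0.31 at 16 h and 0.17 from 8 to 16 h, beside a median of 0 over all genes in each comparison. With only genes that reached an FPKM of 1 in either library, the members' median was -0.09 at 8 h, of the other sign, 0.31 at 16 h and 0.25 from 8 to 16 h, beside 0.01, -0.01 and -0.02 over all such genes.

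The dip of RUNX3 at 8 h was a shape that few genes had. Of 11390 genes with an FPKM of at least 1 in their highest library, 145 (1.27%) were lower by at least 1 at 8 h and again higher by at least 1 at 16 h, and 48 (0.421%) had the opposite shape. RUNX1, TLE2 and TLE4 were also lowest at 8 h, by less. The intervals at 8 h against 0 h include 0 for TLE2 and TLE4. CBFB, TLE1 and RUNX2 were highest at 8 h. The levels of TLE1 were not distinguishable, and RUNX2 rests on about 0, 4 and 2 fragments. TLE3 and HDAC4 were lowest at 0 h. Over the 10731 genes with an FPKM of at least 1 in all 3 libraries, those whose pair of changes against 0 h lay nearest to that of RUNX3 were DNAAF9, PRSS16 and CCNG2, at Euclidean distances of 0.11, 0.16 and 0.18 on the log2 scale. DNAAF9, a dynein assembly factor gene, read 3.49, 1.26 and 3.66 FPKM. PRSS16, a serine protease of the thymus, read 8.50, 2.65 and 8.10 FPKM. CCNG2, a cyclin associated with cell cycle arrest, read 12.2, 4.25 and 13.8 FPKM.

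**Figure D3:**
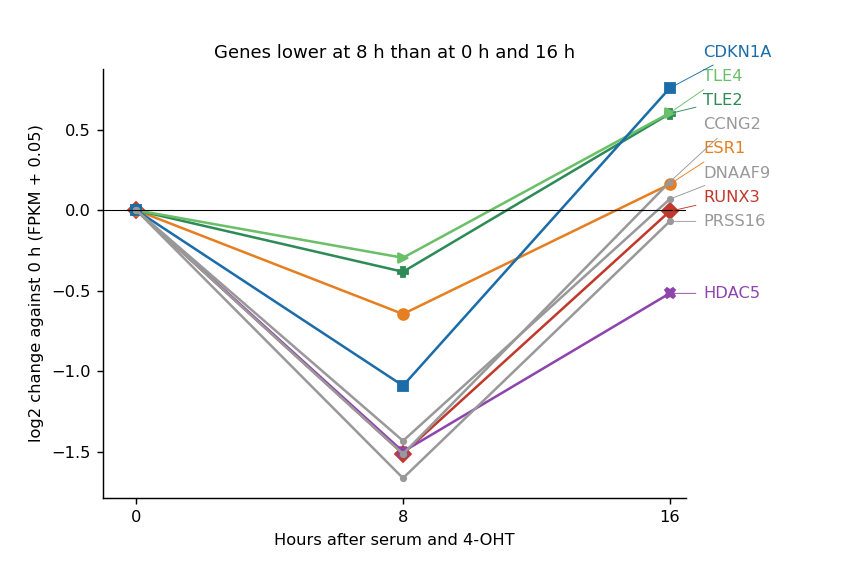
Log2 change against 0 h (FPKM + 0.05) for RUNX3, ESR1, TLE2, TLE4, HDAC5, CDKN1A and, in grey, the 3 genes nearest to RUNX3, 1 library per time. RUNX3 reaches -1.51 at 8 h and -0.01 at 16 h, HDAC5 reaches -1.50 and -0.52, and CDKN1A reaches -1.09 and 0.76. The counting intervals of TLE2 and TLE4 at 8 h against 0 h include 0.

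The genes known to work with these 9 were read from 8 lists holding 127 genes, 14 of them listed at 0 in all 3 libraries. At a size of 2, 2 were higher at 8 h (SIK1 and BGLAP), 3 at 16 h (those and HES2), 1 from 8 to 16 h (HES2), and none was lower. Of all genes, 0.493%, 0.554% and 0.911% were higher by 2 in these comparisons and 0.997%, 0.765% and 0.589% lower. The shares of all genes higher and lower by 1 were 2.77% and 4.53% at 8 h, and 3.11% and 3.36% at 16 h. From 8 to 16 h they were 4.53% and 2.95%. Among genes that reached an FPKM of 1 in either library, 1.27% were higher and 2.49% lower at 8 h. Those shares were 1.47% and 1.27% at 16 h, and 2.66% and 1.53% from 8 to 16 h. The deacetylase, deacetylase partner, co-repressor and modifier lists are counted whole below, without that minimum. Other counts at a size of 1 use the minimum unless said otherwise. BGLAP, the bone protein osteocalcin, was named after its values were seen. It was listed at effectively 0 at 0 h and rests on about 2 fragments in each later library.

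The short TLE family member TLE5, which lacks the repeat domain of the long forms and can act against them, read 84.0, 70.5 and 83.3 FPKM. It was above the sum of the 4 TLE genes by 4.80, 3.94 and 3.55 times. TLE6 read 8.77, 6.01 and 10.7 FPKM, lowest at 8 h and highest at 16 h as were TLE2 and TLE4. Neither gene differed by 1 in any comparison.

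The list of other DNA-binding factors taken to recruit TLE proteins held 23 genes, HEY1, HEY2 and HEYL among them. Whether each listed protein binds TLE was not checked here. Of the 23 genes, 4 were listed at 0 throughout. Among those with an FPKM of at least 1, 1 of 8 was higher by 1 at 8 h, 3 of 9 at 16 h, and none was lower. From 8 to 16 h 3 of 9 were higher and none lower. Without that minimum, 3 of the 23 were higher and 1 lower at 8 h (all genes 2.77% and 4.53%). At 16 h 5 were higher and none lower (3.11% and 3.36%), and from 8 to 16 h 4 were higher and 2 lower (4.53% and 2.95%). The 1 lower at 8 h was TCF7L1 (-1.39, about 12 and 4 fragments). The 3 of 9 counted at 16 h belong to the HES genes, bHLH repressors that end in a TLE-binding motif, which did not move one way. HES6, the HES gene with the highest level at 0 h, read 10.1, 5.18 and 5.09 FPKM, changes of -0.96 and -0.99. HES6 and TCF7L1 were named after their values were seen. HES4 read 1.998, 4.22 and 5.72 FPKM (changes 1.06 and 1.49). HES7 read 1.79, 1.81 and 4.83 FPKM, with a change of 1.41 at 16 h. HES2 read 0.0426, 0.188 and 1.35 FPKM, a change of 3.92 at 16 h that starts from about 2 fragments and becomes 1.18 with a pseudocount of 1. HES2 is among the 9 at 16 h and from 8 to 16 h only through its 16 h level, so its place in those counts follows from its change.

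HDAC5, the closest relative of HDAC4 in the list of other class I and IIa deacetylases, moved otherwise than HDAC4. It read 2.09, 0.709 and 1.45 FPKM, from about 121, 42 and 83 fragments. Its changes were -1.50 at 8 h and -0.52 at 16 h, whereas HDAC4 was above its 0 h level at both times. The other 6 of 7 genes were all within 1, and HDAC3, the partner that gives class IIa enzymes their activity in complexes, read 25.0, 22.7 and 23.1 FPKM. Of the 19 genes for proteins that bind or modify class IIa deacetylases, only SIK1 passed 1. SIK1, a kinase that phosphorylates class IIa deacetylases and holds them in the cytoplasm, read 3.90, 39.6 and 43.1 FPKM, changes of 3.33 and 3.45.

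Among genes whose proteins meet RUNX on chromatin, none of the 18 co-activator genes was higher or lower by 1 in any comparison, and all 18 had an FPKM of at least 1. At the shares of all genes given above, 0 of 18 is no particular count. BRD2, the bromodomain protein that the mutant does not bind, read 44.8, 44.1 and 37.0 FPKM, and EP300, the acetyltransferase p300, read 7.55, 7.20 and 6.52. Of 11 co-repressor genes, RUNX1T1 was listed at 0 in all 3 libraries and none passed 1 against 0 h. CBFA2T3, named after its values were seen, was under an FPKM of 1 in every library. It was higher by 1.66 at 16 h than at 8 h, from about 4 and 19 fragments, the 1 of 11 that passed 1 there (all genes 4.53% higher). Of 21 genes for enzymes that modify RUNX proteins or their turnover, none passed 1 against 0 h. MDM2, a ubiquitin ligase that acts on p53 and on RUNX3, read 31.6, 21.3 and 42.8 FPKM and was higher by 1.01 at 16 h than at 8 h. MDM2 was named after its values were seen.

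Of 28 genes known as RUNX targets in other cells or lines, 9 were listed at 0 throughout, CDKN2A among them. The paper describes ARF, a product of CDKN2A, as activated in H460 cells after induction of wild-type RUNX3. That evidence is protein and promoter binding, not mRNA, and the libraries of that line were not read here. Of the 15 listed target genes with an FPKM of at least 1, CDKN1A alone passed 1 at 8 h and none did so at 16 h. CDKN1A, the p21 inhibitor of cyclin-dependent kinases, read 146, 68.5 and 247 FPKM, changes of -1.09 and 0.76. As with RUNX3, its lowest level was at 8 h, and it was higher by 1.85 at 16 h than at 8 h. CDKN1A was the 1 of 15 that passed 1 in that comparison.

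**Figure D4:**
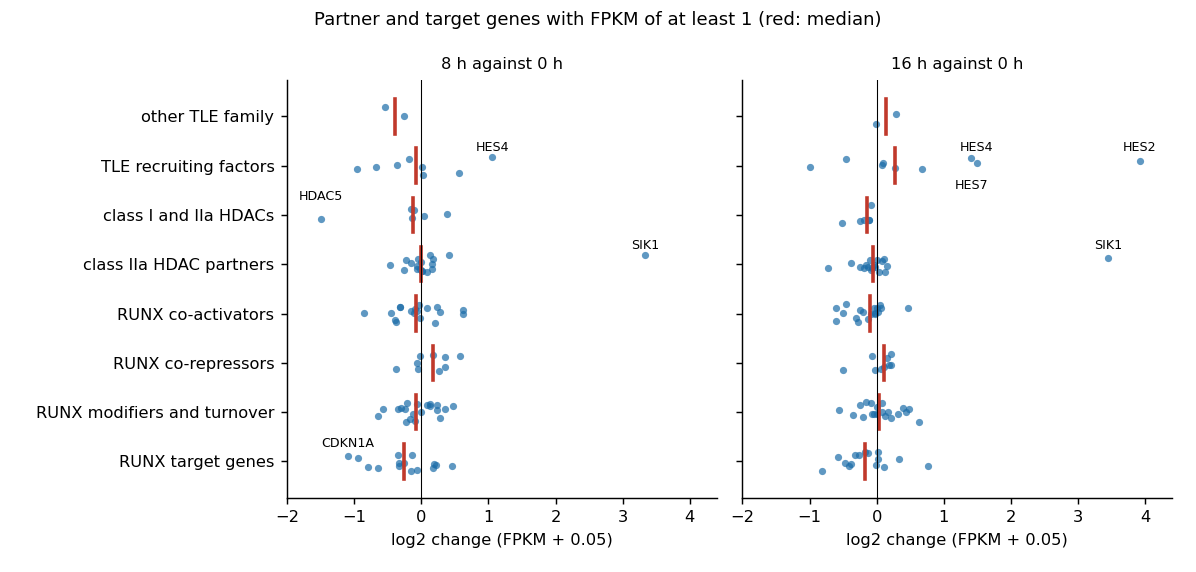
Log2 change (FPKM + 0.05) at 8 h and 16 h against 0 h of genes that reached an FPKM of 1 in either library, by list (points are genes, red lines medians, vertical jitter without meaning). Labelled genes passed a size of 1: HES4, HDAC5, SIK1 and CDKN1A at 8 h, and HES2, HES4, HES7 and SIK1 at 16 h.

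The libraries carried the keratin markers of an epithelial cancer cell, with KRT8 at 662, 698 and 569 FPKM, whereas a further epithelial marker, EPCAM, was listed at 0, 0.248 and 0.313. The blood markers PTPRC and CD3E were at or under 0.0155 FPKM in every library, and the fibroblast gene COL1A1 was between 0.254 and 0.590. A per-gene level in a bulk culture does not tell fewer expressing cells from less mRNA per cell.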

How the data were processed

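mRNA was sequenced (TruSeq Stranded mRNA, NextSeq500) from 3 cultures of H460-ERT2-RUNX3-K94/171R cells at 0, 8 and 16 h. The submitters' processing notes name STAR 2.5.0, Cufflinks, Cuffdiff 2.2.1 and hg19, and the methods of the study name Cutadapt for trimming. The annotation release and the strand setting are not given in the sources used here. The deposited values are FPKM per Ensembl gene, computed by the authors, with no counts. The table of the other 2 lines, also FPKM, lists 24331 loci without gene names and was not used here. Symbols were matched by identifier (19494 of 19869) to GENCODE release 44 on GRCh37. Reads of overlapping or similar genes cannot be separated in these values.

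Changes were log2 differences after a pseudocount of 0.05, called at a size of 2. With 1 library per condition no test was made. Fragment numbers were estimated, a choice made after seeing the data, from the FPKM of single fragments in low genes with 1 transcript, within a fixed window. The 95% intervals of ratios are exact binomial. Shares "of like level" count genes in the same range of mean FPKM (under 1, 1 to 10, 10 to 100, 100 and over) that differed as far in the same direction. That spread holds both sampling and real change. Genes named were the 9, ESR1, up to 3 genes per list and direction with an FPKM of at least 1 and a change of at least 1 against 0 h, and the 3 nearest to RUNX3. Members of a group printed beside them serve as description. The 9 genes and the lists were chosen with earlier results of these data known. Alternatives were a pseudocount of 1, an FPKM minimum of 1, a threshold of 1 and 2 rescalings. Scripts used Python 3.11.15, numpy 2.4.6, pandas 2.3.3, scipy 1.17.1 and matplotlib 3.10.9, and were tested on simulated data.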

Additional observations from a re-analysis of the deposited data

How the results depend on the processing

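With a pseudocount of 1, the median change of the 9 genes at 16 h was 0.051 instead of 0.31. RUNX3 then changed by -0.87 at 8 h and 0.86 from 8 to 16 h, both short of a size of 1. RUNX2 then changed by 0.09, 0.05 and -0.04 in the 3 comparisons. List genes higher by 2 then numbered 1 at 8 h, 1 at 16 h and 0 from 8 to 16 h, against 2, 3 and 1. With an FPKM of at least 1 required, 1 was higher at 8 h. At a threshold of 1, list genes higher numbered 6, 9 and 8 in the 3 comparisons, and those lower 3 at 8 h and 2 from 8 to 16 h. With that threshold, 1 of the 9 genes was higher and 1 lower at 8 h, and 1 higher from 8 to 16 h. With that threshold and the FPKM minimum, added after seeing the data, 1 of the 9 was lower at 8 h and 1 higher from 8 to 16 h, and 2 list genes were lower at 8 h and 5 higher from 8 to 16 h. Requiring an FPKM of at least 1 turned the median of the 9 at 8 h from 0.11 to -0.09. Rescaling the libraries changed none of the counts at a threshold of 2, took TLE2 from 0.98 to 1.04 from 8 to 16 h, past 1, and turned the sign only of RUNX1, RUNX3 and CBFB at 16 h against 0 h, whose changes were near 0. No paired analysis was possible because each line has 1 library per time and no test was made. Without replicates, differences between cultures, sequencing and treatment cannot be told apart, and fragments limit RUNX2 and TLE1.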
